A study of Mus musculus with 4 samples.

Results

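The phase II conjugation enzymes of mouse liver were followed from the fasted to the re-fed state. Members were all gene spots whose name in the scanner files begins with Ugt1 to Ugt3, with Gst and the class letter a, k, m, o, p or t, or with Sult and a digit. This gave 64 probes of 45 genes, out of 39429 probes on the array. They comprise 13 UDP-glucuronosyltransferase (UGT) genes on 18 probes, 20 glutathione S-transferase (GST) genes on 31 probes and 12 sulfotransferase (SULT) genes on 15 probes. The rule reads names alone.

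Liver RNA was taken from single animals, all male C57BL/6J mice of 8 to 12 weeks of age. A group of 4 had been without food for 24 h, and another 4 had gone through the same 24 h fast and then eaten for 2 h. No animal carried a transgene, a deletion or a drug treatment per the labels. Each of 4 two-color arrays held 1 fasted and 1 re-fed liver and is called a replicate (n = 4). The fasted liver carried Cy5 on replicates 1 and 2 and Cy3 on replicates 3 and 4. Values are log2 ratios of fasted over re-fed liver, positive where the fasted liver was higher, or log2 intensities of single livers. An intensity depends on the probe, so levels were never compared between probes. In whole liver RNA, fewer cells of a type and less RNA per cell cannot be told apart.

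Phase II enzymes join a polar group to a drug, hormone, bilirubin or a product of phase I oxidation, which makes it easier to excrete. UGTs sit in the endoplasmic reticulum and transfer glucuronic acid from UDP-glucuronic acid. GSTs, mostly cytosolic, attack electrophiles with glutathione, and SULTs transfer sulfate from 3'-phosphoadenosine-5'-phosphosulfate (PAPS). Liver is a main site of all of these reactions, and several of the genes are classic targets of the receptors PXR, CAR and AHR and of the antioxidant factor NRF2.

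A probe was tested where it stood well above background on all 4 arrays in at least 1 condition, and 52 member probes did so. They represent 35 genes, namely 12 UGT, 18 GST and 5 SULT genes, and each gene entered by its brightest such probe. All 52 probes stood above background in both conditions, and no member spot was flagged, saturated or left out for its local background. The same steps kept 19721 probes of 16054 genes in all. Median signals of gene spots were 40 to 96 per channel and array, over local backgrounds of 20 to 35, and the number of arrays limits the precision. Ratios correlated across probes at 0.66 and 0.75 between arrays of the same dye orientation and at 0.22 to 0.40 between opposite ones. Of 7 hepatocyte markers measured, Tat alone passed the test, 0 of 3 kidney markers stood above background, and the re-fed liver of replicate 3 alone carried high levels of 4 pancreatic acinar markers, with a median ratio of -3.37 there against -0.01 to 0.05 on the other arrays. Their summed intensity lay between 1130 and 18835 in re-fed livers and between 1224 and 1708 in fasted ones, and 9 further acinar markers did not stand well above background in either condition on all arrays. The part of pancreatic RNA in the results below was not tested.

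The comparison asked how far the RNA of these enzymes differs between the fasted state and the first hours of feeding. Calls needed a difference of 1.5-fold or more and, in limma, a Benjamini-Hochberg adjusted p under 0.10. One member, the sulfotransferase Sult1d1, was higher in fasted liver, and 0 members were lower by their brightest probe. Over all tested genes 1.82% were called higher and 2.13% lower (292 and 342 genes; 198 and 538 when arrays were centered on the median in place of loess, and 5 and 14 with normexp fitted on all spots). Counting any probe of a gene, 1 member, Gstm3, was lower and 1, Sult1d1, higher, against 2.27% and 1.9% of all genes. With no fold limit, 3 members were higher (all SULT) and 4 were lower (3 GST and 1 UGT), against 4.96% and 6.33% of all genes. With median centering 0 members were higher and 6 lower in this way, against 2.48% and 8.35% of all genes. With normexp on all spots 0 members were either, against 0.0311% and 0.0872%. At an unadjusted p under 0.05, 3 members were higher and 7 lower, as were 1647 and 1887 of all 16054 genes. The 95% confidence interval lay within a 1.5-fold change either way for 23 of the 35 genes, which held for 82.5% of all genes.

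The classes differed in where their ratios lay. The median log2 ratio was 0.30 over the 5 SULT genes, -0.30 over the 18 GST genes and -0.05 over the 12 UGT genes, and it was 0.0032 over all genes tested. With median centering, which put the median of all genes at -0.057, the SULT, GST and UGT medians were 0.17, -0.425 and -0.20. With no filter on dim probes they were 0.023, -0.26 and -0.04. The SULT median was above 0 on each array, at 0.34, 0.32, 0.20 and 0.22 on replicates 1 to 4. Sult2a8 (0.05) and Sult2a7 (-0.33), tested under older names and outside the naming rule, are not in the SULT median. The GST median was below 0 on each, at -0.30, -0.27, -0.10 and -0.20. The UGT median changed sign between arrays, at -0.28, -0.36, 0.27 and -0.06. A ratio above 0 on all 4 arrays was found for 3 members, all SULT, where 14.1% of all genes had one. A ratio below 0 on all 4 arrays was found for 7 members, 6 of them GST, where 15.7% of all genes had one. These shares describe the members and were not tested as sets.

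**Figure D1:**
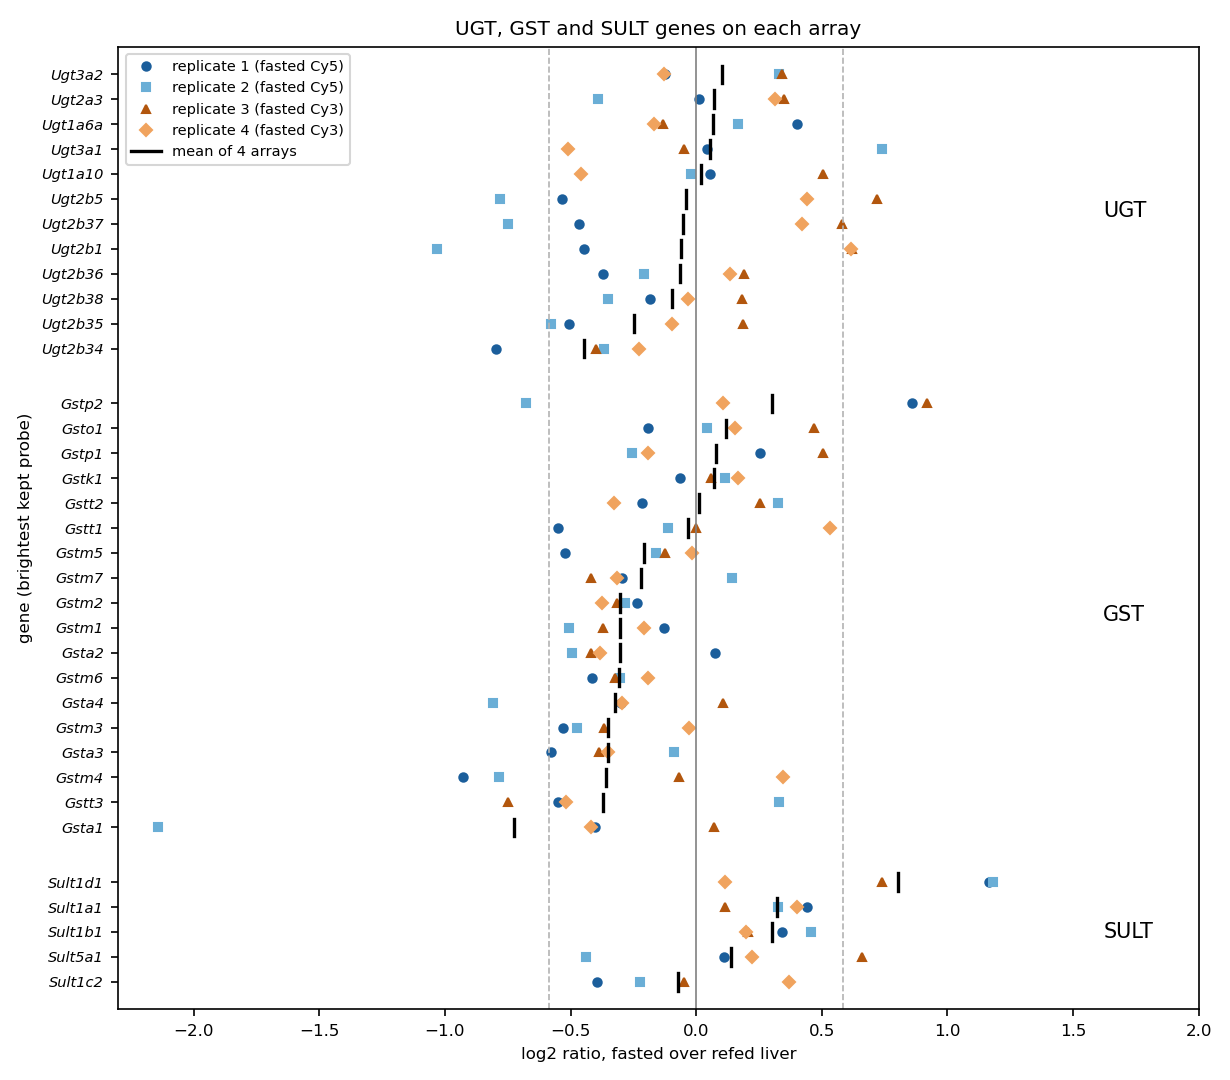
Log2 ratio of fasted over re-fed liver (x axis) for each of the 35 tested genes (y axis), grouped by class and ordered by mean. Points are single arrays, black bars the mean of 4 arrays, and dashed lines mark a 1.5-fold change. Sult1d1 has the highest mean (0.80), all means of alpha and mu GST genes lie left of 0, and the 7 Ugt2b genes spread widely between arrays.

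Sulfotransferases. Sult1d1, which sulfates catecholamines and other amines in the mouse, was the one member called higher. It was read by a pair of probes on chromosome 5 (mm9, the build of the files), shown here because they gave different results. Whether they lie in coding or untranslated sequence is not given in the files. The brighter lies at chr5:87985008-87985067 and the dimmer at chr5:87983671-87983730, both on the minus strand, with no base marked.
Sult1d1 brighter probe: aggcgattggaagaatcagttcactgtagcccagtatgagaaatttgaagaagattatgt
Sult1d1 dimmer probe: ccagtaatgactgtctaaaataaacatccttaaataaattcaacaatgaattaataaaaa

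With the brighter probe, Sult1d1 had log2 intensities of 11.47, 11.43, 11.54 and 10.77 in the fasted livers of replicates 1 to 4. The re-fed livers had 10.30, 10.25, 10.80 and 10.66. Each fasted liver was above its partner, but the fasted liver of replicate 4 was below the re-fed liver of replicate 3, so the groups overlapped. The ratio was 0.80 ± 0.50 (SD, n = 4), a 1.74-fold difference, for which limma gave an adjusted p of 0.0613. The call was kept without replicate 4 (1.03, adjusted p of 0.0303 in limma) and lost without replicate 1, 2 or 3 (0.67 to 0.82, adjusted p of 0.138 to 0.184 in limma). It was also lost with median centering (0.66, adjusted p of 0.105 in limma), with the mean of both probes (0.54, 0.114) and with normexp fitted on all spots (0.66, 0.559). The dimmer probe gave ratios of 0.50, 0.63, 0.22 and -0.21. Its mean was 0.28 ± 0.37 (SD, n = 4), uncalled in limma (adjusted p of 0.323), so both probes were highest on replicates 1 and 2 and lowest on replicate 4. Sult1d1 also had a dye coefficient, the part of the ratio that follows the dye orientation (Cy5 over Cy3), of 0.37 (adjusted p of 0.0932 in limma).

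Sult1a1, the phenol sulfotransferase, and Sult1b1, which acts on phenols and thyroid hormones, passed the adjusted p but not the fold limit. Sult1a1 had ratios of 0.44, 0.32, 0.12 and 0.40 and a mean of 0.32 ± 0.14 (SD, n = 4; adjusted p of 0.0808 in limma). Its intensities overlapped, at 13.86 to 14.81 in fasted and 13.46 to 14.37 in re-fed livers. A second Sult1a1 probe, which overlaps the first by 8 bases, had a mean of 0.36 (adjusted p of 0.139 in limma). Sult1b1 had ratios of 0.34, 0.46, 0.20 and 0.20, with a mean of 0.30 ± 0.12 (SD, n = 4; adjusted p of 0.0833 in limma). Its intensities overlapped too, at 10.01 to 10.77 and 9.81 to 10.43. With median centering both genes were at 0.17 and missed the adjusted p (0.393 and 0.414 in limma), as they did with normexp on all spots (0.227 and 0.559). Sult5a1 (0.14 ± 0.45, SD, n = 4) and Sult1c2 (-0.07 ± 0.33, SD, n = 4) had both signs among their arrays.

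The other 7 SULT genes did not stand well above background on all arrays of either condition, so no level or change is given for them. They are Sult1c1, Sult1e1, Sult2a1, Sult2b1, Sult3a1, Sult4a1 and Sult6b1. Sult1e1, the estrogen sulfotransferase, came nearest, with 3 fasted and 2 re-fed livers above background. Sult2a1, which sulfates steroids and bile acids, was above background in 0 fasted and 1 re-fed livers, and the other 5 genes in 0 of each. Probes the files list under older names added 9 genes that RefSeq (GRCm38.p6) now names as Gst or Sult, outside the naming rule, of which 3 were tested and 0 called. Among these, Sult2a8 had ratios of -0.31, -0.38, 0.57 and 0.33, Sult2a7 a mean of -0.33 and Gstp3 a mean of -0.06.

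**Figure D2:**
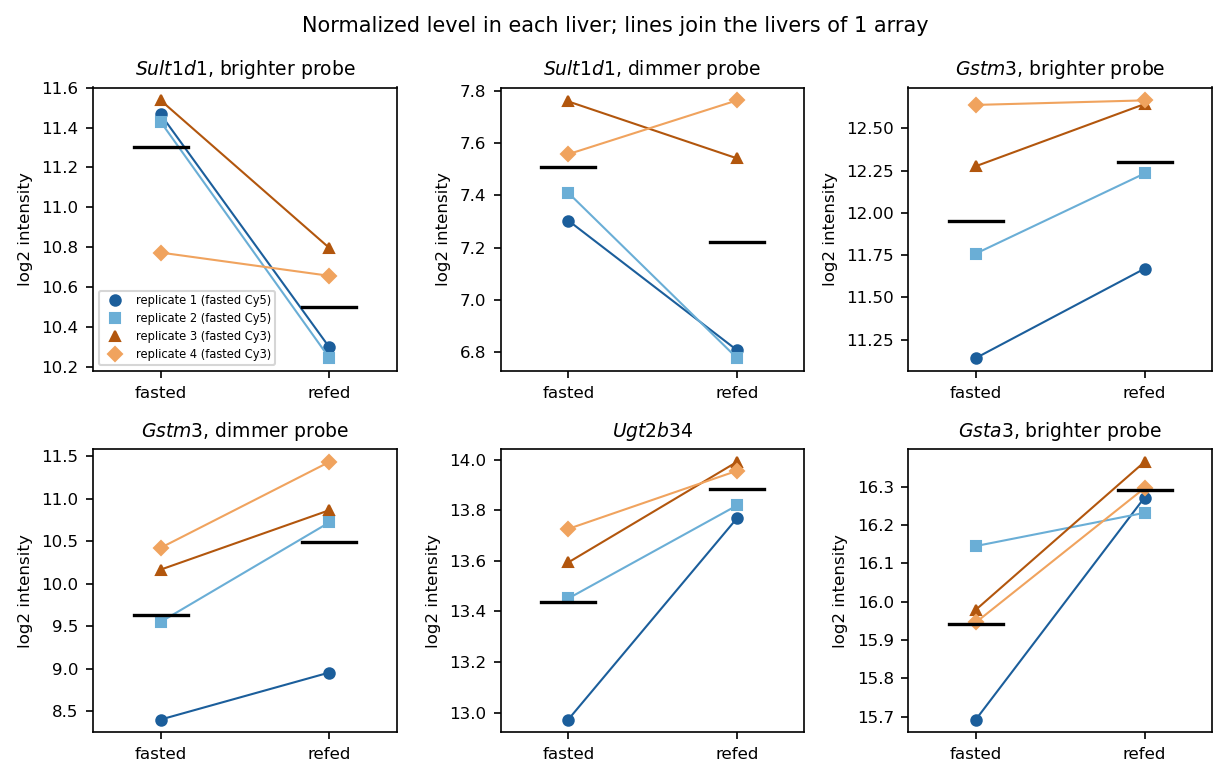
Normalized log2 intensity (y axis, own scale in each panel) of 4 genes in the 4 fasted and 4 re-fed livers, with the brighter and dimmer probes of Sult1d1 and Gstm3 apart. Lines join the livers of 1 array and black bars are group means. Both Gstm3 probes slope upward on every array, the dimmer one more steeply (mean ratio -0.86 against -0.35), and Sult1d1 slopes downward on every array for its brighter probe.

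Glutathione S-transferases of the mu class. All 7 tested mu genes had a mean below 0, and 5 of them were below 0 on all 4 arrays, with a class median of -0.30. Gstm3 was the gene whose probes differed most among GSTs, and the sequences are shown because one of them resembles another mu gene. The brighter probe spans chr3:107769290-107770549, a stretch of 1260 bases for a probe of 60, so it crosses at least 1 intron. The dimmer probe lies at chr3:107766615-107766674, and the Gstm1 probe beside it is placed by the files at chr5:117082490-117082549, while the second Gstm1 probe lies on chromosome 3. All 3 read the minus strand. Capitals mark the 25 of 27 aligned bases that the Gstm3 and Gstm1 probes share, and nothing is marked in the first.
Gstm3 brighter probe: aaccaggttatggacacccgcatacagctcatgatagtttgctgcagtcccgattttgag
Gstm3 dimmer probe: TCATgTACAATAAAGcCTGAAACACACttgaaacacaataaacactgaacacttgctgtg
Gstm1 brighter probe: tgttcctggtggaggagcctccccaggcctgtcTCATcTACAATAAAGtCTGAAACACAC

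The dimmer Gstm3 probe was lower in the fasted liver of every pair. Its log2 intensities were 8.40, 9.55, 10.17 and 10.42 in fasted livers and 8.96, 10.72, 10.87 and 11.43 in re-fed livers of replicates 1 to 4. Livers of different arrays differed more than the partners did, so the groups overlapped although each pair had the same direction. The ratios were -0.55, -1.17, -0.70 and -1.01, with a mean of -0.86 ± 0.28 (SD, n = 4; 1.81-fold; adjusted p of 0.0164 in limma). The probe kept its call without any single replicate (-0.96 to -0.75) and lost it with normexp on all spots (-0.59, adjusted p of 0.559 in limma). The brighter probe gave -0.53, -0.47, -0.37 and -0.03, with a mean of -0.35 ± 0.23 (SD, n = 4), and limma gave it an adjusted p of 0.109, short of a call. The direction was therefore shared by both Gstm3 probes and the size was not. The likeness to Gstm1 means that this probe may also read Gstm1 RNA, and how much it does was not tested. Gstm1 itself, the main mu enzyme of liver, had means of -0.30 and -0.28 with its pair of probes (adjusted p of 0.109 and 0.187 in limma).

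Gstm2 and Gstm6 had the narrowest spreads of the mu genes and passed the adjusted p without reaching 1.5-fold. Gstm2 was at -0.24, -0.28, -0.32 and -0.37, with a mean of -0.302 ± 0.058 (SD, n = 4; adjusted p of 0.0609 in limma). Gstm6 was at -0.41, -0.30, -0.32 and -0.19, with a mean of -0.308 ± 0.092 (SD, n = 4; adjusted p of 0.0665 in limma). Both missed the adjusted p with plain background subtraction, with Agilent's processed signals, with normexp on all spots and without any single replicate. Single livers overlapped between the groups for both genes. Their dimmer probes had means of -0.32 and -0.13 for Gstm2 and of -0.206 and -0.203 for Gstm6. Of these 4 probes, the first Gstm2 probe passed the adjusted p (0.0753 in limma). By its brightest probe Gstm4 had the lowest mean of the mu genes, -0.36 ± 0.60 (SD, n = 4), but ran from -0.93 and -0.79 on replicates 1 and 2 to -0.07 and 0.34 on replicates 3 and 4. A dimmer Gstm4 probe was at -0.34, -0.16, -0.02 and -0.46, with a mean of -0.25 ± 0.20 (SD, n = 4), and limma gave it an adjusted p of 0.198. With this probe every fasted liver was below every re-fed one. Gstm5 and Gstm7 had means of -0.21 and -0.22.

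Glutathione S-transferases of the alpha class. All 4 alpha genes had a mean below 0 and the class median was -0.34. Gsta3, the abundant constitutive alpha enzyme of mouse liver, was at 15.69, 16.15, 15.98 and 15.95 in fasted livers and at 16.27, 16.23, 16.36 and 16.30 in re-fed livers. Every fasted liver was below every re-fed one. The ratios were -0.58, -0.09, -0.39 and -0.35, with a mean of -0.35 ± 0.20 (SD, n = 4; 1.27-fold; adjusted p of 0.0941 in limma), which passes the adjusted p but not the fold limit. With median centering it was at -0.52 and missed the adjusted p (0.112 in limma). A second Gsta3 probe gave -0.35 ± 0.18 (SD, n = 4; adjusted p of 0.0796 in limma). By brightest probes, groups of livers that did not overlap were found for 2 members, Gsta3 and Ugt2b34, both lower in fasted livers. Of all genes, 7.78% were separated in that direction and 6.04% in the other.

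Gsta1, an inducible alpha gene, had the lowest mean of all members by brightest probes and was not called. Its mean was -0.25 without replicate 2. Its ratios were -0.40, -2.14, 0.07 and -0.42, so that replicate 2 set most of the mean of -0.72 ± 0.97 (SD, n = 4; adjusted p of 0.29 in limma). Its intensities ran from 7.78 to 9.95 among fasted livers and from 8.19 to 10.37 among re-fed livers, so that animals of a group differed by more than the group means. Gsta2, its close relative, was at 0.07, -0.49, -0.42 and -0.38, with a mean of -0.305 ± 0.26 (SD, n = 4; adjusted p of 0.177 in limma). Their probes are shown because 46 of 50 aligned bases are the same, so each may read both RNAs. The Gsta1 probe lies at chr9:78090411-78090470 on the plus strand and the Gsta2 probe at chr9:78178856-78178915 on the minus strand. Capitals mark the 4 bases that differ.
Gsta1 probe: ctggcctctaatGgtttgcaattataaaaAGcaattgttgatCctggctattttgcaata
Gsta2 probe: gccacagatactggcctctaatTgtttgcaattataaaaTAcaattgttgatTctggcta
Gsta4, which clears 4-hydroxynonenal, a product of lipid peroxidation, had ratios of -0.30, -0.81, 0.11 and -0.30, with a mean of -0.32 ± 0.37 (SD, n = 4).

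Glutathione S-transferases of the other classes. Gstp1 and Gstp2, the pi enzymes, differed between arrays more than between conditions. Gstp2 had ratios of 0.86, -0.68, 0.92 and 0.11 with its brightest probe and -0.04, -0.71, 0.99 and 0.27 with the other, and the Gstp1 probes were at 0.25, -0.26, 0.50 and -0.19 and at 0.35, -0.64, 0.79 and -0.07. All 4 pi probes were highest on replicate 3 and lowest on replicate 2, and means were 0.08 to 0.303 with SDs of 0.36 to 0.75. One pair of probes, Gstp1 and Gstp2, shares 30 of 35 aligned bases, so the genes are not fully apart. The red blood cell marker Hba-a1 was at 2.45, -0.26, 2.48 and 0.34 on the same arrays. Of 3 red blood cell markers, 2 were tested and 0 called, and their summed intensity lay between 19102 and 89459 in fasted and between 12473 and 27198 in re-fed livers. Medians of the 6 Kupffer cell markers were 0.55, -0.24, 0.51 and -0.19, with 0 of 6 called and summed intensities of 13343 to 18505 and 8810 to 15876. The part of these cells in the pi values was not tested.

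Gstk1 (0.07 ± 0.10, SD, n = 4) of mitochondria and peroxisomes, and Gsto1 (0.12 ± 0.27, SD, n = 4) of the omega class, had 95% intervals of -0.11 to 0.25 and -0.16 to 0.398. A change of 1.5-fold lies outside both. The theta enzymes Gstt1 and Gstt2 had means of -0.03 and 0.0097 with both signs among their arrays. Gstt3 was at -0.55, 0.33, -0.75 and -0.52, with a mean of -0.37 ± 0.48 (SD, n = 4; adjusted p of 0.297 in limma). Without replicate 2 it reached -0.60 and was called (adjusted p of 0.0656 in limma). Gsto2 and Gstt4 did not stand above background on all arrays of either condition.

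UDP-glucuronosyltransferases of the 2B family. These enzymes glucuronidate steroids, bile acids and many drugs, and their genes lie together on chromosome 5. All 7 tested Ugt2b genes had a mean below 0, of which 1, Ugt2b34, was below 0 on all 4 arrays. Means of Ugt2b1, Ugt2b5, Ugt2b36 and Ugt2b37 lay near 0, at -0.06, -0.04, -0.06 and -0.05, with both signs among their arrays. Ugt2b34, at chr5:87318849-87318908, was at 12.97, 13.45, 13.59 and 13.73 in fasted livers and at 13.77, 13.82, 13.99 and 13.96 in re-fed livers. All fasted livers were below all re-fed ones. The ratios were -0.80, -0.37, -0.40 and -0.23, with a mean of -0.45 ± 0.24 (SD, n = 4; 1.36-fold; adjusted p of 0.0663 in limma), which passes the adjusted p and misses the fold limit. It was the lowest mean of any UGT, and with median centering in place of loess it reached -0.61 and was called (adjusted p of 0.0552 in limma). It missed the adjusted p with normexp on all spots (-0.47, 0.553 in limma) and without any single replicate (-0.52 to -0.33, 0.109 to 0.199).

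Of the other 6 Ugt2b genes, 5 had a dye effect, all but Ugt2b38. Ugt2b1 was at -0.45, -1.03, 0.62 and 0.62 on replicates 1 to 4, a mean of -0.06 ± 0.82 (SD, n = 4). Ugt2b5 was at -0.54, -0.78, 0.72 and 0.44, and Ugt2b37 at -0.47, -0.75, 0.58 and 0.42. These 3 genes were lower in the fasted liver where it carried Cy5 and higher where it carried Cy3. The dye coefficients were -0.68 for Ugt2b1, -0.62 for Ugt2b5 and -0.55 for Ugt2b37, and limma gave adjusted p of 0.0331, 0.0225 and 0.0258. Ugt2b35 (-0.29) and Ugt2b36 (-0.23) had smaller ones (adjusted p of 0.065 and 0.084 in limma). By brightest probes, a dye effect at an adjusted p under 0.10 was found for 7 members, where 15.3% of all genes had one. Of these 5 were Ugt2b genes and the others Gstm4 and Sult1d1. The dimmer probes of Gstm4 (-0.0024) and Sult1d1 (0.28) had no dye effect (adjusted p of 0.988 and 0.107 in limma). The dimmer Ugt2b35 probe had one (-0.34, adjusted p of 0.0461 in limma). With 2 arrays in each orientation, the dye and the livers that happened to be on those arrays cannot be told apart. Ugt2b35, Ugt2b36 and Ugt2b38 had means of -0.25 ± 0.36, -0.06 ± 0.27 and -0.10 ± 0.23 (SD, n = 4), and none was called.

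The Ugt2b5 and Ugt2b37 probes are shown because the genes behaved alike and their probes share 46 of 55 aligned bases. They lie at chr5:87554155-87554214 and chr5:87669707-87669766 on the minus strand, and capitals mark the 9 bases that differ.
Ugt2b5 probe: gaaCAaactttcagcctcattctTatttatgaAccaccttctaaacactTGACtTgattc
Ugt2b37 probe: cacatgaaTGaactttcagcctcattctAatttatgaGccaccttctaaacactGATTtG
Each probe may read some of the other RNA. The Ugt2b37 probe also shares 26 of 32 bases with the dimmer Ugt2b35 probe.

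**Figure D3:**
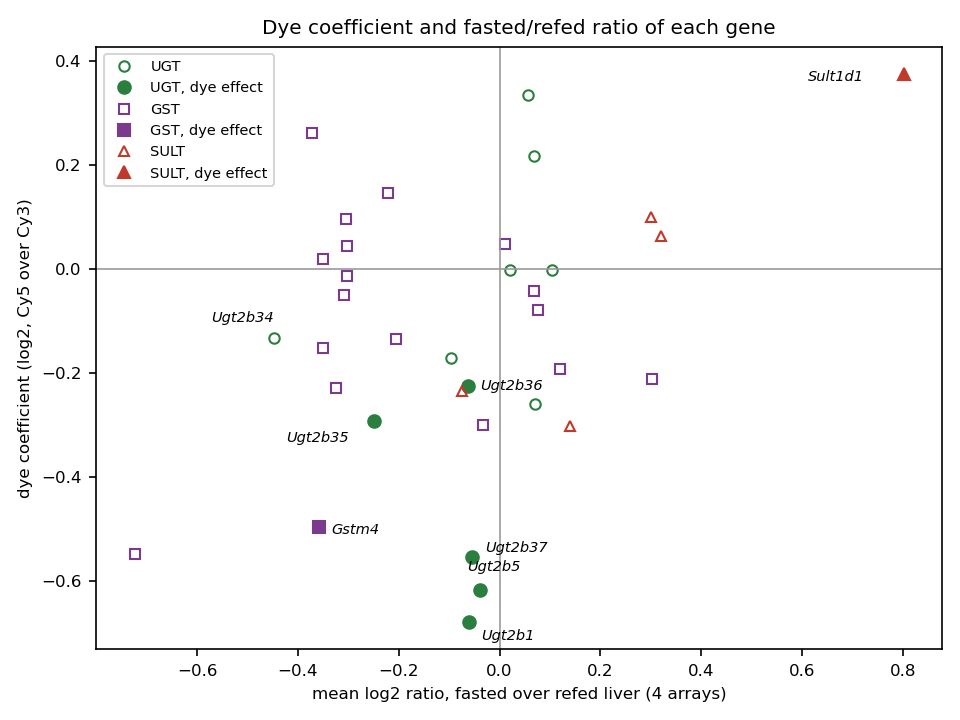
Mean log2 ratio of fasted over re-fed liver (x axis) against the dye coefficient, Cy5 over Cy3 on the log2 scale (y axis), for the 35 tested genes. Filled symbols have a dye effect at an adjusted p under 0.10. Ugt2b1, Ugt2b5 and Ugt2b37 lie near 0 on the x axis and at -0.55 to -0.68 on the y axis, while Sult1d1 is high on both (0.80 and 0.37).

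The test was repeated with the dye coefficient in the same model. With it, 8 GST and 2 UGT genes were lower and 3 SULT genes higher at an adjusted p under 0.10 with no fold limit, where 13.9% of all genes were lower and 13% higher. The GST genes were Gsta2, Gsta3, Gsta4, Gstm1, Gstm2, Gstm3, Gstm4 and Gstm6, the UGT genes Ugt2b34 and Ugt2b35, and the SULT genes Sult1a1, Sult1b1 and Sult1d1. Mean ratios are unchanged by the term, and Sult1d1 alone among them reached 1.5-fold. Of the genes named here Gstm4, Ugt2b35 and Sult1d1 had a dye effect and the rest did not. Why more genes passed with the term was not tested.

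Other UDP-glucuronosyltransferases. Ugt1a6a, which glucuronidates small phenols, had a mean of 0.07 ± 0.27 (SD, n = 4) with its brightest probe at chr1:90115493-90115552. Its other probes gave -0.0031 and -0.08. Ugt1 enzymes are made from alternative first exons joined to shared last exons, so a probe in the shared part reads all of them, and the files do not say which probe does. Ugt1a10 was read by probes that lie end to end on the plus strand, shown because only one of them stood above background. The first, at chr1:89952720-89952779, did so in 0 livers. The second, at chr1:89952780-89952839, did so in all 8 and gave ratios of 0.06, -0.02, 0.50 and -0.46 (mean 0.020 ± 0.39, SD, n = 4). No base is marked.
Ugt1a10 first probe: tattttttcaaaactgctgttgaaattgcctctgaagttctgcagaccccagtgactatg
Ugt1a10 second probe: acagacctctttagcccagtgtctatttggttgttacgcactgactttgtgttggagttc

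Ugt3a1 and Ugt3a2 belong to a family that uses sugars other than glucuronic acid. Ugt3a1 was at 0.04, 0.74, -0.05 and -0.51, with a mean of 0.06 ± 0.51 (SD, n = 4). Ugt3a2 had a mean of 0.10 ± 0.27 (SD, n = 4) and a second probe at 0.13. Ugt2a3 had a mean of 0.07 ± 0.34 (SD, n = 4), and Ugt2a1, known from olfactory tissue, was above background in 1 fasted and 1 re-fed liver. Of the 5 UGT genes with a mean above 0, 0 were above 0 on all 4 arrays. With median centering Ugt1a6a, Ugt2a3, Ugt3a1 and Ugt3a2 turned negative (-0.094, -0.079, -0.081 and -0.047).

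Supply of the conjugating groups. Among 5 tested genes around UDP-glucuronic acid, 1 was called lower in fasted liver and 0 higher, with a median of -0.198. Over all genes 2.13% were called lower and 1.82% higher. Slc35b1, a nucleotide carrier of the endoplasmic reticulum known as an ATP/ADP exchanger, was lower in fasted liver by 0.87 on the log2 scale. Its ratios were -0.86, -1.18, -0.57 and -0.86 (SD 0.25, n = 4), and limma gave it an adjusted p of 0.0134. It does not make UDP-glucuronic acid. Ugdh, which does, was at -0.29, -0.38, -0.40 and -0.44, a mean of -0.38 ± 0.065 (SD, n = 4; adjusted p of 0.0353 in limma), short of 1.5-fold. Ugp2 (0.04) and the transporter Slc35d1 (0.13) were not called.

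Among 9 tested genes of sulfate donor supply, 1 was called lower in fasted liver and 0 higher, against the same shares of all genes, with a median of 0.12. Papss1, one of the PAPS synthases, was lower in fasted liver by 0.85, with ratios of -0.31, -1.09, -0.92 and -1.08 (SD 0.37, n = 4). Limma gave it an adjusted p of 0.0275. The call was lost without replicate 2 (-0.77, adjusted p of 0.106 in limma) or 3 (-0.83, 0.112). The Papss1 mean depended on the background step, at -0.37 with normexp on all spots and -1.23 with Agilent's processed signals. Papss2, the other synthase, had a mean of 0.22 ± 0.32 (SD, n = 4). With no fold limit, which 4.96% of all genes passed as higher, Slc35b2 (0.54), Slc35b3 (0.37) and Cdo1 (0.45) were higher, and limma gave adjusted p of 0.024, 0.0392 and 0.0773. The first and second of these carry PAPS into the Golgi, where other sulfotransferases than SULTs use it, and Cdo1 oxidizes cysteine.

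Of 11 tested genes of glutathione synthesis and recycling, 0 were called, where 1.82% of all genes were called higher and 2.13% lower, and their median was -0.11. Gclc and Gclm, the subunits of the rate-limiting enzyme, were at -1.05, -0.93, -0.17 and 0.11 and at -0.74, -1.12, 0.18 and 0.51. Both were below 0 on replicates 1 and 2 and higher on 3 and 4, as were several Ugt2b genes. With the dye term in the model Gclc, with a mean of -0.51, had an adjusted p of 0.00839 in limma, and 0.221 without it.

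**Figure D4:**
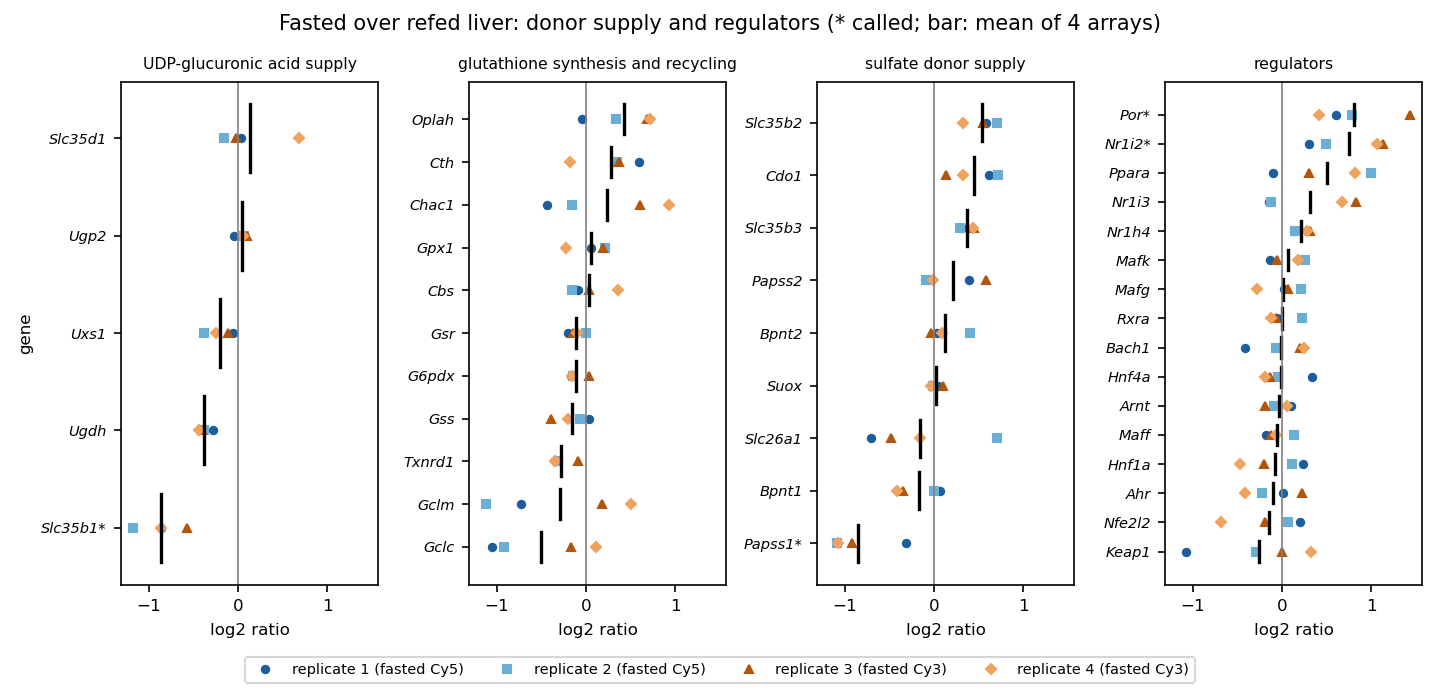
Log2 ratios of fasted over re-fed liver (x axis) for genes that supply UDP-glucuronic acid, glutathione and sulfate donor (y axes). The last panel holds regulators and the reductase Por. Points are single arrays and black bars are means. Asterisks mark the 4 called genes: Slc35b1 and Papss1 lie left of 0 on every array and Nr1i2 and Por right of 0.

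Other conjugating enzymes, removal and export. Of 16 tested enzymes of methylation, acetylation, amino acid conjugation and related steps, 0 were called, with a median of -0.0058. The epoxide hydrolase Ephx2 was higher at 0.43 ± 0.21 (SD, n = 4; adjusted p of 0.0603 in limma), short of 1.5-fold. Of 6 genes that remove conjugated groups, such as the glucuronidase Gusb (0.27), 0 were called, with a median of 0.21. Of 7 tested exporters, among them the canalicular pump Abcc2 (0.196), 0 were called, with a median of 0.15. Their shares called compare with 1.82% and 2.13% of all genes.

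Regulators. Of 16 tested genes listed as regulators, a list that includes the reductase Por, 2 were higher and 0 lower. Of all genes 1.82% and 2.13% were, and the list had a median of -0.0068. Nr1i2, the xenobiotic receptor PXR, was at 0.30, 0.49, 1.13 and 1.07, with a mean of 0.75 ± 0.41 (SD, n = 4; adjusted p of 0.0478 in limma). Its mean was 0.32 with normexp on all spots. The call was lost without replicate 2 (0.83, adjusted p of 0.111 in limma), 3 (0.62, 0.165) or 4 (0.64, 0.151). Por, the reductase that feeds electrons to cytochromes P450, was at 0.61, 0.78, 1.44 and 0.41, with a mean of 0.81 ± 0.44 (SD, n = 4; adjusted p of 0.0456 in limma), lost without replicate 2 and with median centering (0.66, adjusted p of 0.107 in limma). With normexp on all spots, where 5 genes of all were called higher and 14 lower, none of Slc35b1, Papss1, Nr1i2 and Por was called (adjusted p of 0.204 to 0.559 in limma). The related receptor Nr1i3 (CAR) had a mean of 0.31 ± 0.51 (SD, n = 4; adjusted p of 0.418 in limma), and a dimmer probe at 0.31 passed the adjusted p (0.0706) but not the fold limit. The brightest probes of Nfe2l2, Keap1 and Ahr had means of -0.15, -0.26 and -0.10, and none was called. Ppara was at 0.51 ± 0.50 (SD, n = 4) with its brightest probe (adjusted p of 0.177 in limma). Its dimmer probes were at 0.54 and 0.60 (adjusted p of 0.0809 and 0.119 in limma), and none was called. Arnt was at -0.03 with its brightest probe and at -0.27 with a dimmer one (adjusted p of 0.869 and 0.095 in limma).

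Promoters. RefSeq sequence from 250 bases before to 50 after the start site was held for 40 of the 45 member genes (GRCm38.p6). The antioxidant response element TGACNNNGC was found on either strand in 3 of them, Gsta3, Gstm5 and Gstm7, and in 12.4% of all such promoters. The xenobiotic response element core GCGTG was found in 8, namely 5 GST genes and Sult1b1, Sult1d1 and Sult2b1, and in 32.4% of all. The cAMP response element TGACGTCA, which CREB binds and which holds the shorter TGACG, was found in 0 members and 1.79% of all. TGACG was found in 4 members and in 20.8% of all, which include those with the full element. No UGT promoter held any of these letters. Members are counted as genes, with a match in any of a gene's windows, and the shares of all are of single windows. The shares are a description of short windows and say nothing of binding. The promoters of the called gene Sult1d1 and of Gsta3 are shown with these letters in capitals. The Sult1d1 window is chr5:87568957-87569256 on the minus strand, and its core is read on the strand opposite to the one printed. The Gsta3 window is chr1:21240335-21240634 on the plus strand and holds the antioxidant element.
Sult1d1 promoter: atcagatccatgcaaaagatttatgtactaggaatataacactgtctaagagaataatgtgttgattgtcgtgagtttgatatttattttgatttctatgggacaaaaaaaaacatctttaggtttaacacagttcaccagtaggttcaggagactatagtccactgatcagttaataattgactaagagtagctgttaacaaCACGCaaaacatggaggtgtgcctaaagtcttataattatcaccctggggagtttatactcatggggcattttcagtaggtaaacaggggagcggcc
Gsta3 promoter: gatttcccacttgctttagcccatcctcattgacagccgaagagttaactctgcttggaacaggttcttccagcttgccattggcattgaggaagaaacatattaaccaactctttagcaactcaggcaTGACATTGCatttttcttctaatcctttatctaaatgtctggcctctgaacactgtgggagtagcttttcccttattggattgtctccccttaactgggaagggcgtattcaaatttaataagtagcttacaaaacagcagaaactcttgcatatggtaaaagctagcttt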

How the data were processed

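RNA of 4 fasted and 4 re-fed livers (200 ng each) was amplified, labeled with Cy3 or Cy5 and hybridized to Agilent whole mouse genome arrays in a dye swap. The deposited scanner files, made with Feature Extraction 10.10.1.1, hold raw spot and local background intensity per channel, and its processed intensity. The authors also deposited a table of log2 ratios normalized by loess; its background step is not given in the sources used here, and its rows were matched by row number (r of 0.53 to 0.96 with the scanner ratios).

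In R 4.3.3 with limma 3.58.1, spots with a local background over 3 times the array median were left out (55 in all). Background was corrected by normexp (offset 50), ratios were normalized by loess with control spots at weight 0, flagged spots left out and spots of a probe averaged. Ratios were tested by lmFit and eBayes, two-sided, with Benjamini-Hochberg adjustment over 19721 probes. Levels of single livers were set by quantile normalization of each array's mean log2 intensities after loess (Aquantile).

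Genes named were every called gene, the 4 furthest above and below 0 in each class, genes whose probes disagree and called genes of 7 lists. Other tested members were added. Some genes of these lists are not reported here. Members and lists were chosen with earlier results of these data known. Replicates are separate livers. The steps were tested on simulated data.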

Additional observations from a re-analysis of the deposited data

How the results depend on the processing

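Of the settings tried, the count of members called higher was 0 in place of 1 with normexp fitted on all spots (where only 5 and 14 genes of all were called higher and lower), with median centering, at an adjusted p under 0.05 and with the mean of a gene's probes; it was 0 to 1 leaving out 1 array. The count called lower was 1 in place of 0 with median centering (Ugt2b34), with the mean of a gene's probes (Gstm3) and, chosen after seeing the data, with any probe of a gene (Gstm3), and 0 to 1 leaving out 1 array (Gstt3 without replicate 2). Of all 16054 genes, 236 were called higher and 287 lower at an adjusted p under 0.05, and 265 and 321 with the mean of a gene's probes. The numbers were 198 and 538 with median centering, and 183 to 351 and 211 to 429 leaving out 1 array. With no fold limit 3 members were higher and 4 lower, against 4.96% and 6.33% of all genes. The GST median was -0.425 with median centering, -0.23 to -0.28 leaving out 1 array. The SULT median was 0.22 with normexp on all spots, 0.17 with median centering, 0.023 with no filter on dim probes (which adds the 7 dim genes) and 0.28 to 0.33 leaving out 1 array; the UGT median was -0.20 with median centering and -0.17 to 0.05 leaving out 1 array. Median centering shifted the median of all genes to -0.057, and turned Gstk1 (-0.081), Gsto1 (-0.035), Gstp1 (-0.089), Ugt1a6a (-0.094), Ugt2a3 (-0.079), Ugt3a1 (-0.081) and Ugt3a2 (-0.047) negative. Single members were recomputed for 22 of the 35 tested genes. Among these, leaving out 1 array, means took both signs for Gstp1 (-0.065 to 0.19), Sult1c2 (-0.22 to 0.032), Sult5a1 (-0.035 to 0.33), Ugt1a6a (-0.044 to 0.15), Ugt2a3 (-0.023 to 0.23), Ugt2b36 (-0.15 to 0.040) and Ugt3a1 (-0.17 to 0.24). Other members were not recomputed, among them Ugt2b1, Ugt2b5 and Ugt2b37, which had both signs among their arrays. Sult5a1 (-0.067) with normexp on all spots and Ugt1a6a (-0.0058) with the mean of its probes turned as well. The cause was not tested. Plain subtraction, Agilent's processed signals, the authors' log2 ratios, both channels above background, the dye term and a rebuilt SAM changed neither count of calls and turned none of the 22 members recomputed. With no fold limit, plain subtraction left Sult1d1 and Ugt2b34 past the adjusted p, median centering 5 GST genes and Ugt2b34, all lower, and normexp on all spots none; Agilent's processed signals left Gsta3, Sult1d1 and Ugt2b34, the authors' ratios lost Sult1b1, no filter on dim probes lost Gsta3, and the mean of a gene's probes lost Gstm6, Sult1a1 and Sult1d1 and added Gstm1 and Gstm3. Of all genes, 6.31% were lower and 4.98% higher in this way with plain subtraction, 8.58% and 6.81% with Agilent's processed signals. The shares were 6.87% and 5.39% with the authors' ratios, 8.35% and 2.48% with median centering and 0.0872% and 0.0311% with normexp on all spots. They were 2.87% and 2.23% with no filter on dim probes and 6.5% and 4.97% with the mean of a gene's probes. No call of an adjusted p alone for Gsta3, Gstm2, Gstm6, Ugt2b34, Sult1a1 or Sult1b1 was kept when any 1 array was left out. The 4 called genes of the supply and regulator lists lost their call with normexp on all spots; other losses stand beside their values.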
